A study of Mus musculus with 6 samples.

Results

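The kinesins are the microtubule motors that walk cargo through the cell and build the mitotic spindle. Their messages were read in RAW264.7 cells given either a miR-125b mimic or a negative control. Members were the rows of the deposited expression table whose Ensembl mouse identifier maps to a symbol that starts with Kif and a digit or the letter c, or with Klc and a digit. The rule found 41 of the 16665 genes, 37 with a Kif symbol and 4 with a Klc symbol. The rows Kif1bp and Kif16bos are not motors: Kif1bp (now Kifbp) encodes a protein that binds kinesins, and Kif16bos is a transcript opposite Kif16b. The other 39 were divided by their known roles into 13 mitotic kinesins, 14 transport motors, 4 kinesin light chains and 8 other kinesins. The same symbols name 10 more genes of the annotation, 3 of them pseudogenes, that had no row in the table: among them are the mitotic Kif2b and the neuronal motor Kif1a.

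RAW264.7 cells are macrophage-like and come from a mouse leukaemia. The groups were 3 samples transfected with the miR-125b mimic and 3 transfected with a negative control, all of one line in serum-supplemented DMEM. Libraries were made from total RNA with a SMARTer mRNA kit. The arm of miR-125b in the mimic and the time after transfection are not stated. Nor is it stated that samples of a group were separate cultures. Each p-value thus sets the difference between groups against the spread of these samples only, and that spread may be technical.

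Kinesins share a motor domain that turns ATP hydrolysis into steps along microtubules. Mitotic kinesins slide spindle microtubules apart, carry chromosomes, shorten microtubule ends or bundle the midzone where the cell will divide, and most are made as cells approach mitosis. Transport kinesins work in every phase: kinesin-1 is a pair of heavy chains (Kif5a, Kif5b or Kif5c) with a pair of light chains (Klc genes) that hold cargo, and in macrophages kinesin-1 and other motors move lysosomes and other vesicles towards the cell edge. A microRNA lowers the level or translation of messages whose 3′ untranslated region (3′ UTR) pairs with bases 2 to 8 of its guide strand, the seed.

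The mature mouse miR-125b-5p (RefSeq, GRCm38.p6) is read from a gene on chromosome 9 (chr9:41581940-41581961, plus strand) and a gene on chromosome 16 (chr16:77646279-77646300, plus strand), with the same 22 bases. Its seed is in capitals. The 4 lines after it are the sites for that seed found in the longest annotated 3′ UTRs of tested members that match at least bases 2 to 8. Capitals mark the match (CTCAGGG, followed by A in a full 8-base site), all on the minus strand of GRCm38, at chr17:46630751-46630780 (Klc4), chr4:41391955-41391984 (Kif24), chr19:5108464-5108492 (Klc2) and chr4:117160032-117160060 (Kif2c).
miR-125b-5p: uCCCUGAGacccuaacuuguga
Klc4: tgggtctgcacCTCAGGGAtgcgcctgatg
Kif24: atgacccactaCTCAGGGAcagacctcatc
Klc2: ttctgttcaatCTCAGGGtaacttcctcc
Kif2c: taaatttcaacCTCAGGGcatcatgccca

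A second set of sequences, from promoters, was found more often in the mitotic class than in the transport class. Promoters of many genes made before mitosis hold a cell cycle genes homology region (CHR, here TTTGAA), often with CCAAT boxes nearby. RefSeq windows of GRCm38.p6, from 250 bases before to 50 after the start, were searched on both strands. A CHR stood in 11 of the 12 mitotic members with a window and in 0 of the 9 transport members with one. It stood in 20.2% of all 27025 genes with a window and in 14.4% of the tested genes with one. It lay within 30 bases of the start in 9 mitotic members, against 3.66% of all genes. CCAAT stood in 8 of the 12 mitotic and 3 of the 9 transport windows, against 41.1% of all genes, and both motifs stood in 8 mitotic windows, 0 transport windows and 8.97% of all. Kif18a had a window with neither motif. Of the genes without a row, the transport motor Kif1a had a CHR in its window, and the mitotic Kif2b had a CCAAT but no CHR. A match describes letters and is no evidence of binding. The lines show the CHR near the start in 5 members whose values are described further on, read along the gene, with the match in capitals (TTCAAA where it is on the other strand). They lie at chr9:61946780-61946809 (Kif23, minus strand), chr19:34922353-34922382 (Kif20b, plus), chr9:122951050-122951079 (Kif15, plus), chr17:33890615-33890644 (Kifc1, minus) and chr17:26917108-26917137 (Kifc5b, plus).
Kif23: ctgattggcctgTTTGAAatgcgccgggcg
Kif20b: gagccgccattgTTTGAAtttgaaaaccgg
Kif15: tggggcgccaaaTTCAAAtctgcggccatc
Kifc1: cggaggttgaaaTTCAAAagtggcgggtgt
Kifc5b: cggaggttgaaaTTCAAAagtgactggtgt
The Kif20b line holds another match directly after the one in capitals. The Kifc1 and Kifc5b lines begin with the same bases: these are near copies on chromosome 17, and 40.9% of the 50-base words of Kifc5b transcripts also occur in Kifc1. How fragments were divided between them was not given in the sources used here, so both values are uncertain.

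Values are FPKM (fragments per kilobase and per unit of sequencing depth), a scale per length on which genes can be set beside each other. Depth recovered from the table was 14.4 to 16.6 M fragments in mimic libraries and 14.7 to 16.8 M in control libraries. Negative control 3 had a value above 0 for 13266 genes, against at least 15141 in the other libraries. The 9 macrophage markers were all in the table and 7 averaged at least 1 FPKM. Their sum, mostly Lyz2, was 6260 to 6503 FPKM in mimic libraries and 7006 to 8459 FPKM in control libraries. Of the markers of neurons, epithelium, fibroblasts, endothelium and lymphocytes, 4 had a row and none averaged 1 FPKM. The part of negative control 3 and of the macrophage markers in the results below was not tested beyond the values given without that library.

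Genes averaging at least 1 FPKM over the 6 libraries were tested with limma on log2(FPKM + 1), and p-values were adjusted over all 10166 of them. A log2 fold change is mimic minus control on that scale, and SE is its standard error. Adding 1 draws the fold changes of genes with few FPKM towards 0, so they are not on a par with those of high genes. Of the motors and light chains, 29 were tested: all 13 mitotic, 10 of 14 transport, 3 of 4 light chains and 3 of 8 others. None of the 29 passed an adjusted p of 0.05, nor did any of the 10166 genes (0%), and voom weights on the recovered fragment counts gave 0 as well. The smallest adjusted p was 0.332 among the members and 0.289 among all genes. Unadjusted p in limma was under 0.05 for 4 members, against 13.2% of all tested genes. Kif14, Kif20b and Kif5b were higher in mimic libraries (7.96% of all genes) and Kifc5b was lower (5.26%). With voom it was under 0.05 for 5 members, against 13.7% of genes. The mimic and control values did not overlap in 4 of the 29 members, against 20.1% of all tested genes. Mimics were above in 3 (12.6% of genes) and below in 1 (7.49%).

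**Figure D1:**
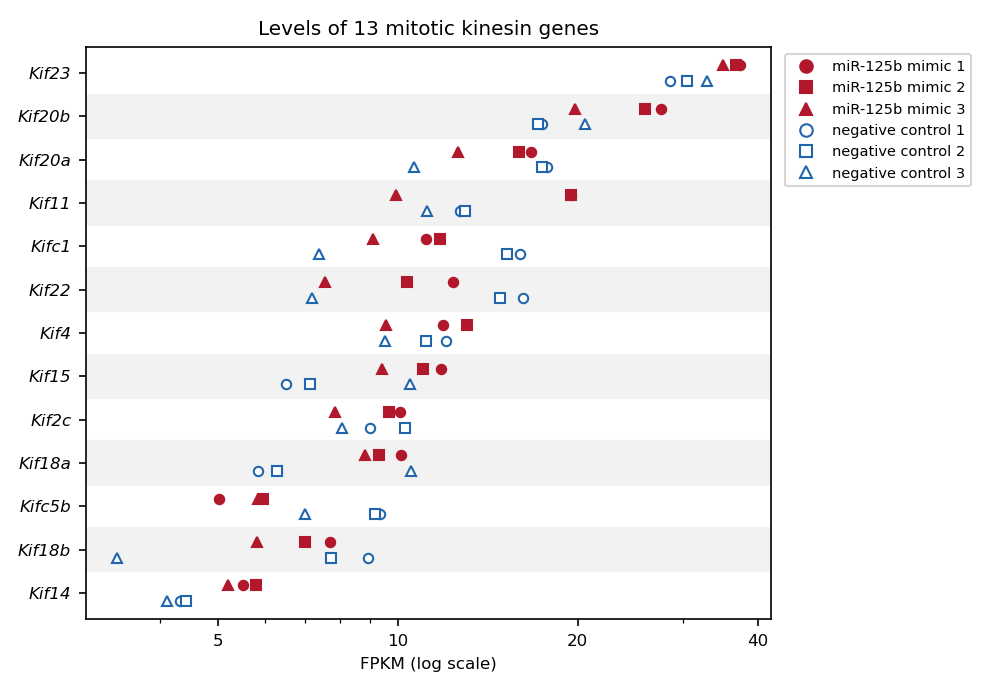
FPKM (log scale) of the 13 mitotic kinesin genes in each library, ordered by mean level, with filled red symbols for the 3 miR-125b mimic libraries and open blue symbols for the 3 negative controls (circle 1, square 2, triangle 3). The symbols of the groups separate only in Kif23 and Kif14 (mimic above) and Kifc5b (mimic below), and control 3 lies apart from controls 1 and 2 in genes such as Kif15, Kif18a, Kif22 and Kifc1.

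The mitotic kinesins spanned mean levels of 4.89 to 33.5 FPKM over the 6 libraries. Their log2 fold changes ran from −0.52 to 0.40, with a median of 0.10, against a median of 0.04 over all tested genes. In mimic libraries 10 were higher and 3 lower, against 5728 higher and 4438 lower of all 10166 tested genes. With each library centred on its median, or with quantile scaling, 8 were higher and 5 lower. In bulk RNA, a different share of cells near mitosis and a different amount of RNA in each such cell cannot be told apart.

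The midzone and cytokinesis motors come first. Kif23 (MKLP1, the motor of the centralspindlin complex; ENSMUSG00000032254, chr9:61915905-61946774, minus strand) had 37.4, 36.8 and 35.0 FPKM in mimics 1 to 3 and 28.5, 30.5 and 33.0 FPKM in controls 1 to 3. The lowest mimic stood above the highest control. The log2 fold change was 0.24 (SE 0.11, limma adjusted p = 0.384; 95% interval −0.01 to 0.49). Kif20b (MPP1, needed for the last step of cytokinesis; ENSMUSG00000024795, chr19:34922361-34975745, plus strand) had 27.6, 25.9 and 19.8 FPKM in mimics and 17.4, 17.1 and 20.6 FPKM in controls. Mimics 1 and 2 were high, while mimic 3 lay under control 3. Limma gave a log2 fold change of 0.38 (SE 0.15, limma adjusted p = 0.364). Kif14, which brings citron kinase to the midbody (ENSMUSG00000041498, chr1:136466343-136531511, plus strand), had 5.51, 5.80 and 5.2 FPKM in mimics and 4.31, 4.42 and 4.10 FPKM in controls. All mimic values were above all control values. Mimic minus control, the log2 fold change was 0.30 (SE 0.11, limma adjusted p = 0.351; 95% interval 0.03 to 0.57). Kif20a (MKLP2), which carries the chromosomal passenger complex to the midzone, had 16.7, 15.9 and 12.6 FPKM in mimics and 17.8, 17.5 and 10.6 FPKM in controls. Library 3 was the lowest of both groups, and 29.3% of its exon bases overlap Cdc23 on the opposite strand, so its level is uncertain where counting did not use strand. Kif4, a chromokinesin that also works at the midzone, had 11.9, 13.1 and 9.55 FPKM in mimics and 12, 11.1 and 9.52 FPKM in controls, and the groups overlapped. On the opposite strand Pdzd11 overlaps 15.1% of the exon bases of Kif4.

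Motors of spindle assembly differed in direction. Kif11 (Eg5), which pushes spindle poles apart, had 19.5, 19.5 and 9.95 FPKM in mimics and 12.7, 13 and 11.2 FPKM in controls. Mimics 1 and 2 were the highest of the 6 libraries and mimic 3 was the lowest. Kif15, a motor that can take over part of the work of Kif11 (ENSMUSG00000036768, chr9:122951046-123018733, plus strand), had 11.8, 11 and 9.40 FPKM in mimics and 6.5, 7.12 and 10.5 FPKM in controls. Control 3 lay inside the mimic range and the other controls lay under it. This came to a log2 fold change of 0.40 (SE 0.18, limma adjusted p = 0.403), the highest of the class. Kifc1 (HSET), a minus-end motor that focuses spindle poles, had 11.1, 11.8 and 9.10 FPKM in mimics and 16.0, 15.2 and 7.37 FPKM in controls. Controls 1 and 2 were the highest and control 3 the lowest of all. Its near copy Kifc5b (ENSMUSG00000024301, chr17:26917091-26932583, plus strand) had 5.01, 5.94 and 5.83 FPKM in mimics and 9.32, 9.16 and 6.98 FPKM in controls. Every mimic value was under every control value. The log2 fold change was −0.52 (SE 0.15, limma adjusted p = 0.332; 95% interval −0.86 to −0.18), the lowest of the class.

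Motors that act on chromosomes and microtubule ends form the remaining group. Kif18a, which damps the swings of chromosomes at the metaphase plate (ENSMUSG00000027115, chr2:109280738-109341747, plus strand), had 10.1, 9.29 and 8.80 FPKM in mimics and 5.84, 6.28 and 10.5 FPKM in controls. Control 3 was the highest of all 6 libraries and the other controls were the lowest. Limma gave a log2 fold change of 0.32 (SE 0.21, limma adjusted p = 0.515). Kif22 (KID), which pushes chromosome arms away from the poles, had 12.4, 10.3 and 7.56 FPKM in mimics and 16.2, 14.8 and 7.20 FPKM in controls, so library 3 was low in both groups. Kif2c (MCAK), which removes tubulin from microtubule ends and carries one of the printed sites, had 10.1, 9.66 and 7.85 FPKM in mimics and 8.98, 10.3 and 8.07 FPKM in controls. Kif18b, which limits the length of astral microtubules, had 7.69, 7.0 and 5.80 FPKM in mimics and 8.92, 7.74 and 3.39 FPKM in controls. In both genes the groups overlapped.

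**Figure D2:**
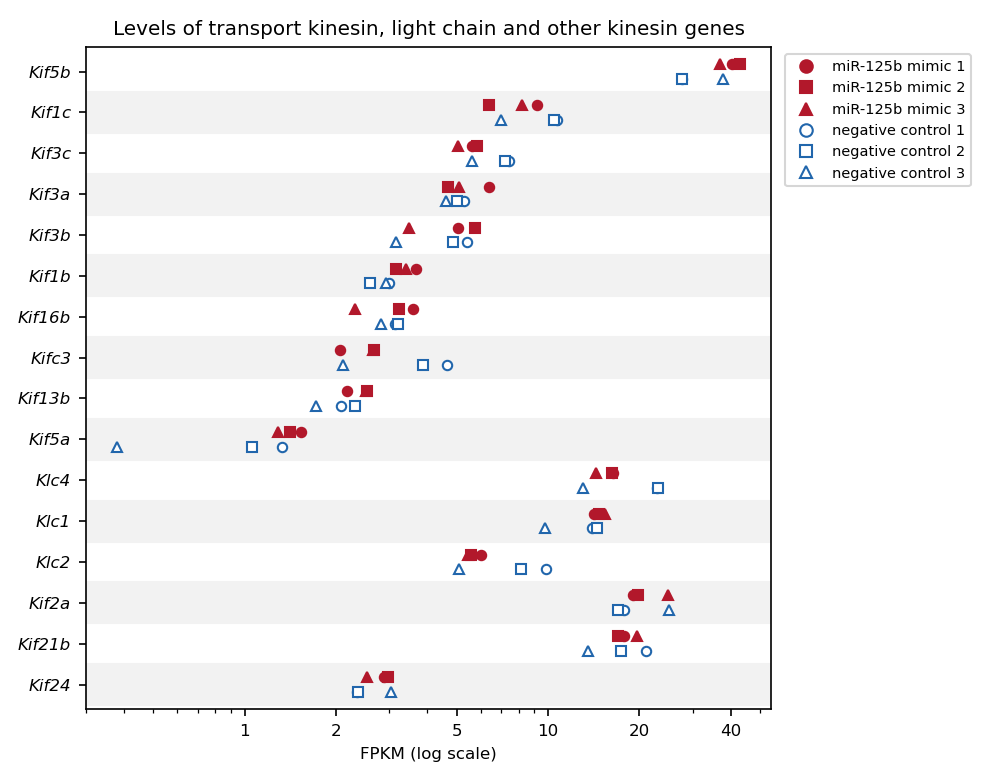
FPKM (log scale) of the tested transport motors, light chains and other kinesins in each library, ordered by mean level within each class, with filled red symbols for miR-125b mimic libraries and open blue symbols for negative controls (circle 1, square 2, triangle 3). Kif5b stands far above the other transport motors, and in Kif5b, Klc4, Klc2 and Kifc3 the open triangle of control 3 lies with the mimics or beyond them.

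Among the transport motors, the kinesin-1 heavy chain Kif5b was the highest, at 40.5, 43.0 and 36.8 FPKM in mimics and 27.6, 27.6 and 37.8 FPKM in controls. Control 3 lay inside the mimic range and controls 1 and 2 lay under it. Mimic minus control, the log2 fold change was 0.38 (SE 0.15, limma adjusted p = 0.364; 95% interval 0.02 to 0.73). Its mean of 40.1 ± 3.08 FPKM in mimics and 31.0 ± 5.93 FPKM in controls (SD, n = 3 each) was close to that of Kif23, the next gene in order, at 36.4 ± 1.26 FPKM in mimics and 30.6 ± 2.22 FPKM in controls. The neuronal heavy chains were low. Kif5a had 1.53, 1.41 and 1.28 FPKM in mimics and 1.33, 1.06 and 0.379 FPKM in controls, with control 3 far under the rest, and a log2 fold change of 0.36 (SE 0.22, limma adjusted p = 0.501). The ratio of the Kif5a means, mimic over control and with no 1 added, was 1.53. Kif5c stayed at or under 0.153 FPKM in every library.

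The light chains that pair with them did not share a direction. Klc4 (ENSMUSG00000003546, chr17:46630624-46646022, minus strand), with a full 8-base site, had 16.4, 16.3 and 14.4 FPKM in mimics and 22.8, 23.0 and 13 FPKM in controls. Controls 1 and 2 were above all mimics and control 3 was under them. This came to a log2 fold change of −0.26 (SE 0.22, limma adjusted p = 0.614). Klc2 (ENSMUSG00000024862, chr19:5107746-5118560, minus strand), also with a site, had 5.99, 5.58 and 5.46 FPKM in mimics and 9.82, 8.13 and 5.08 FPKM in controls, in the same order. The log2 fold change was −0.34 (SE 0.21, limma adjusted p = 0.508). Klc1, with no site, had 14.2, 14.7 and 15.4 FPKM in mimics and 14, 14.6 and 9.75 FPKM in controls: all libraries but control 3 were close. Limma gave a log2 fold change of 0.22 (SE 0.16, limma adjusted p = 0.572). Klc3 was at 0.123 to 0.796 FPKM in mimics and 0.694 to 0.703 FPKM in controls and was not tested. Summed over the 3 tested light chains, levels were 36.6, 36.6 and 35.3 FPKM in mimics and 46.6, 45.7 and 27.8 FPKM in controls, so the mimic libraries lay between control 3 and the other controls.

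The kinesin-2 subunits, which move cargo in cilia and vesicles elsewhere, were at moderate levels. Kif3a had 4.67 to 6.41 FPKM in mimics and 4.61 to 5.29 FPKM in controls, and Kif3b had 3.48 to 5.73 FPKM in mimics and 3.15 to 5.41 FPKM in controls. Kif3c, an alternative partner of Kif3a, had 5.60, 5.82 and 5.06 FPKM in mimics and 7.45, 7.23 and 5.63 FPKM in controls. Controls 1 and 2 were above every mimic, and control 3 lay within their range. Mimic minus control, the log2 fold change was −0.25 (SE 0.14, limma adjusted p = 0.468), and 35.3% of its exon bases overlap the antisense gene 1110002L01Rik.

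The kinesin-3 motors carry vesicles and mitochondria. Kif1b, which moves mitochondria and synaptic vesicle precursors, had 3.67, 3.17 and 3.40 FPKM in mimics and 3.00, 2.60 and 2.91 FPKM in controls. All mimic values were above all control values, by a small margin. This came to a log2 fold change of 0.20 (SE 0.13, limma adjusted p = 0.508). Kif13b had 2.18, 2.52 and 2.51 FPKM in mimics and 2.07, 2.32 and 1.71 FPKM in controls, overlapping, with a log2 fold change of 0.17 (SE 0.14, limma adjusted p = 0.622). Kif1c, which in human macrophages takes part in podosome turnover, had 6.41 to 9.19 FPKM in mimics and 6.98 to 10.7 FPKM in controls. Kif16b, a motor of early endosomes, had 2.31 to 3.60 FPKM in mimics and 2.82 to 3.21 FPKM in controls. Kifc3, a minus-end motor, had 2.06, 2.66 and 2.65 FPKM in mimics and 4.64, 3.86 and 2.10 FPKM in controls, with control 3 among the mimics. The log2 fold change was −0.35 (SE 0.23, limma adjusted p = 0.529). Over the 10 tested transport motors 6 were higher and 4 lower in mimic libraries, with a median log2 fold change of 0.08. The untested Kifc2, Kif17 and Kif13a were at or under 0.567 FPKM in every library. Kif17, a motor of dendrites and cilia counted from 11 to 21 fragments a library, had all mimics (0.166, 0.197 and 0.184 FPKM) under all controls (0.294, 0.260 and 0.208 FPKM).

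The other tested kinesins differed little. Kif2a was counted among them and not with the mitotic Kif2b and Kif2c, so the mitotic counts and medians leave it out. Kif2a, a microtubule depolymerase, had 19.1, 19.8 and 24.9 FPKM in mimics and 17.7, 17.0 and 25.1 FPKM in controls: library 3 was high in both groups, and Dimt1 on the opposite strand overlaps 19.2% of its exon bases. Limma gave a log2 fold change of 0.10 (SE 0.18, limma adjusted p = 0.825). Kif21b, which limits microtubule growth in T cells and neurons, had 17.8, 17.0 and 19.6 FPKM in mimics and 21.0, 17.4 and 13.5 FPKM in controls, with a log2 fold change of 0.08 (SE 0.17, limma adjusted p = 0.847). Kif24, which works at centrioles and carries the other full 8-base site, had 2.89, 2.98 and 2.53 FPKM in mimics and 2.34, 2.36 and 3.05 FPKM in controls. Mimic minus control, the log2 fold change was 0.09 (SE 0.14, limma adjusted p = 0.807). The untested Kif7, Kif21a, Kif9, Kif19a and Kif27 averaged under 1 FPKM, and all 10 untested motors and light chains had means of 0.0191 to 0.679 FPKM. Among these, Kif9 had 0.515, 0.504 and 0.590 FPKM in mimics and 0.373, 0.346 and 0.396 FPKM in controls, from 25 to 39 fragments a library. Non-overlap of the groups, as in Kif9 and Kif17, was found in 20.1% of tested genes. Those average at least 1 FPKM, so that share does not describe genes at the level of Kif9 and Kif17. The row Kif1bp had 3.95, 3.56 and 3.33 FPKM in mimics and 4.02, 4.33 and 3.14 FPKM in controls, overlapping, and Kif16bos had 0 to 2 fragments a library.

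**Figure D3:**
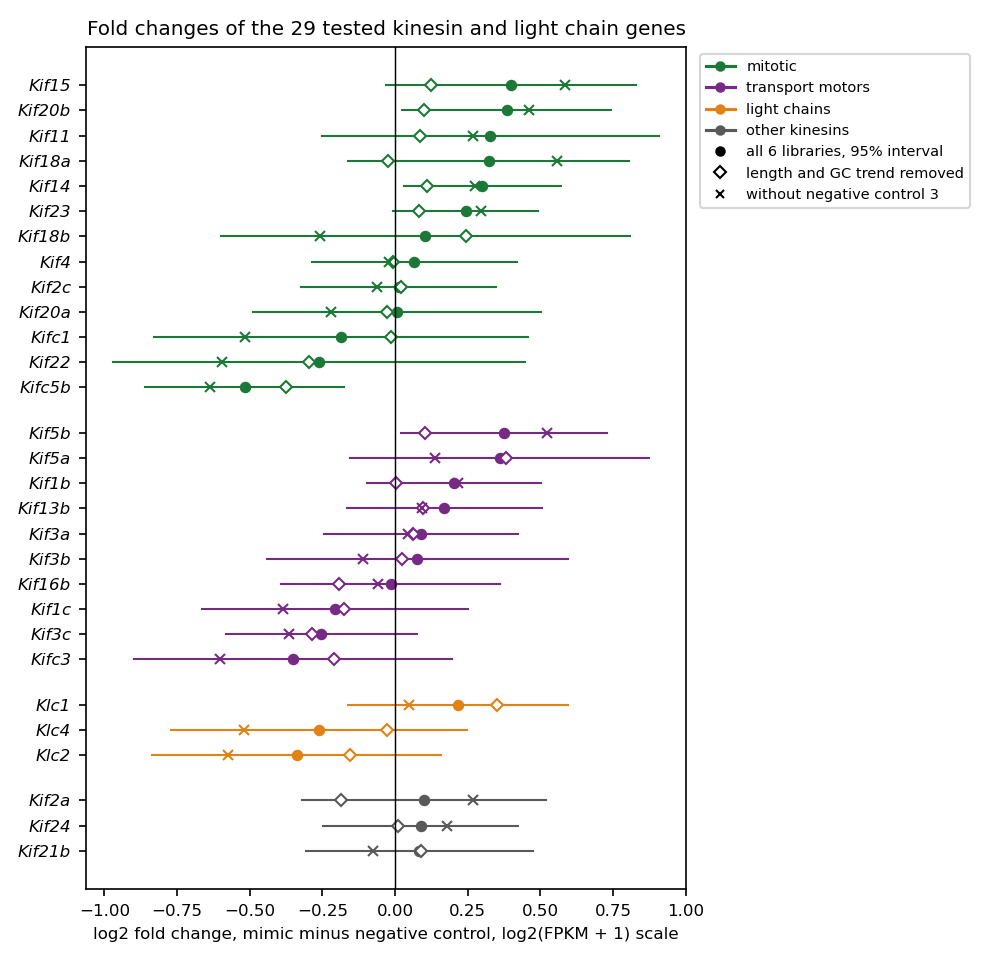
Log2 fold change (mimic minus control, log2(FPKM + 1)) of the 29 tested kinesin and light chain genes by class, with 95% intervals from limma, beside the value after subtracting the trend of length and GC (open diamonds) and the value when control 3 was left out (crosses). The intervals of most members cross 0, the mitotic members span −0.52 to 0.40, and removing the trend brings 19 of the 29 nearer to 0. That share was not counted over all tested genes.

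The values without negative control 3 stand beside these because that library lies apart in many members. It was nearer to the mimic mean than to the mean of controls 1 and 2 in 21 of the 29 members (72.4%), 10 of 13 mitotic and 6 of 10 transport, against 65.2% of all tested genes. Without it, 10 of the 29 members passed limma at an adjusted p under 0.05, against 23.7% of all tested genes. The 4 that were higher in mimic libraries were Kif15 (log2 fold change 0.58, adjusted p = 0.0168), Kif18a (0.56, adjusted p = 0.0120), Kif5b (0.52, adjusted p = 0.0104) and Kif23 (0.29, adjusted p = 0.0337), against 11.6% of all genes. The 6 that were lower were Kifc5b (−0.64, adjusted p = 0.00981), Kifc3 (−0.60, adjusted p = 0.0257), Klc2 (−0.57, adjusted p = 0.0152), Klc4 (−0.52, adjusted p = 0.0107), Kifc1 (−0.52, adjusted p = 0.0261) and Kif3c (−0.36, adjusted p = 0.0407), against 12.2% of all genes. The class medians were then −0.02 for mitotic and −0.01 for transport motors, against −0.01 over all tested genes. Of the mitotic members 6 were then higher and 7 lower, against 4994 higher and 5172 lower of all tested genes. In all, 23 of the 29 kept their sign, 9 of the 13 mitotic members among them. That share was not counted over all tested genes. That this library is the one shown left out was decided with the values known.

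Fold changes varied with base composition. Over the 10128 tested genes with an annotated transcript, the log2 fold change had a Spearman correlation of −0.55 with the GC content of the longest transcript and 0.38 with exon length. Over the 13 mitotic kinesins these were −0.85 and 0.77, and over the 10 transport motors −0.48 and 0.35. The genes share the 6 libraries, and the values are a description. Kif18a, Kif20b, Kif11 and Kif15, the mitotic members lowest in GC content at 38.2% to 42.7%, had log2 fold changes of 0.32 to 0.40. Kif2a, of the other kinesins, had 0.10 at 38.6%. The near copies Kifc5b and Kifc1, at 55.8% and 57.0%, were lower in mimic libraries, while the mitotic Kif18b, at 55.2%, had 0.10. Of the 9 mitotic members at or under the median GC of all tested genes, 49.0%, 8 were higher in mimic libraries with a median log2 fold change of 0.30, and of the 4 above it 2 were higher and 2 lower with a median of −0.09. Of all 29 tested members, 12 of the 14 at or under that GC were higher (median 0.22), and 8 of the 15 above it (median 0.01). Over all tested genes 77.1% were higher at or under that GC (median 0.16) and 35.6% above it (median −0.09).

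**Figure D4:**
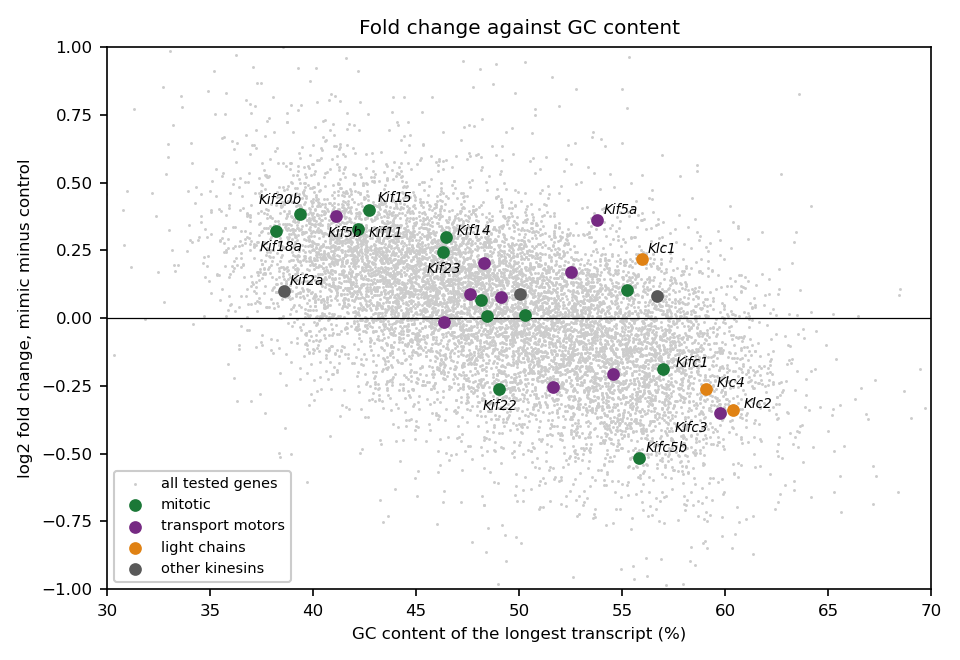
Log2 fold change (mimic minus control) against the GC content of the longest transcript (%), for tested genes (grey) and for the 29 tested kinesin and light chain genes (coloured by class). The axes leave out 42 genes, none of them a member. Mitotic members at 38.2% to 42.7% GC lie above 0 and Kifc5b at 55.8% lies lowest of the members.

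When a smooth trend of length and GC was taken out of each library, 19 of the 29 members moved nearer to 0, 9 of them mitotic, and 25 kept their sign. Neither share was counted over all tested genes, to which the same step was applied. The mitotic median became 0.02, with 7 higher and 6 lower, and the transport median 0.01. Over all 10128 genes in this fit the median was 0.0007, with 5077 higher and 5051 lower. With the trend removed, Kif15 had a log2 fold change of 0.12, Kif20b 0.10, Kif5b 0.10, Kif23 0.08, Kif14 0.11 and Kif18a −0.02. Kifc5b had −0.37, Kif3c −0.28, Kif5a 0.38 and Klc1 0.35. None of the members passed limma at an adjusted p under 0.05, nor did any of the 10128 genes (0%). When negative control 3 was left out of this fit as well, 0 of the 29 members passed, against 3.8% of genes, and the smallest adjusted p among them was 0.0866. Whether the trend comes from the libraries or from the cells was not tested.

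**Figure D5:**
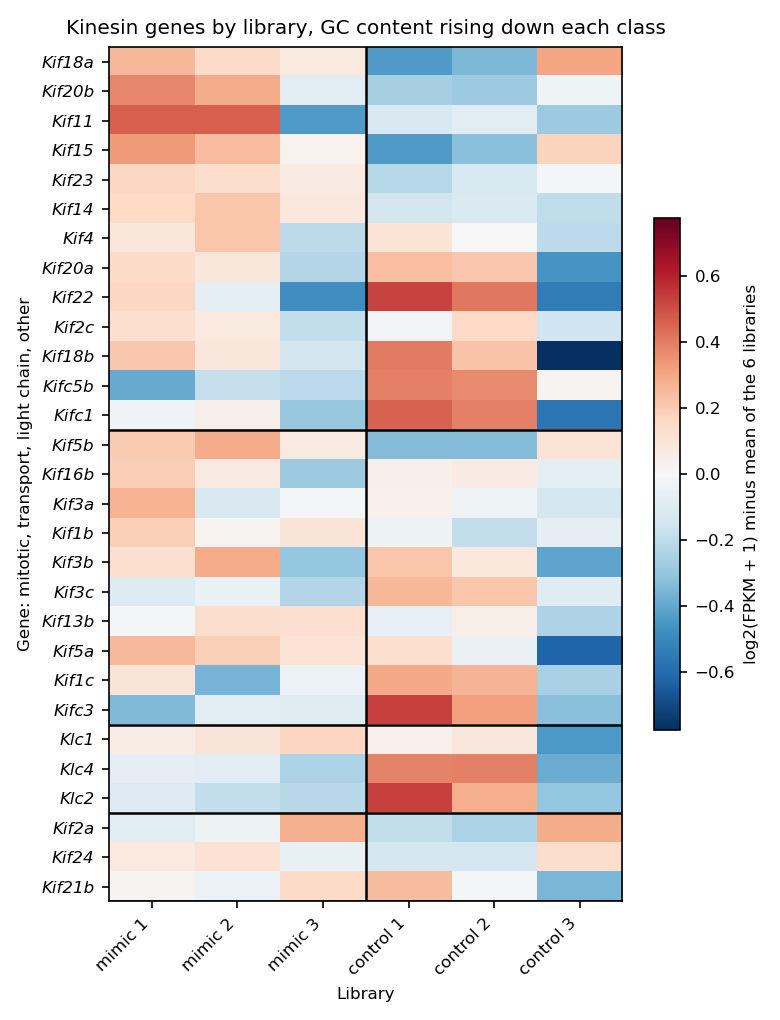
Heat map of the 29 tested genes (rows, by class, GC content rising downwards within a class) in the 6 libraries (columns, miR-125b mimics 1 to 3 left of negative controls 1 to 3), coloured by log2(FPKM + 1) minus the gene's mean over the libraries. Kif18a, Kif15 and Kif5b are low in controls 1 and 2 alone, while Kif22, Kifc1 and Kif18b are high there and lowest in control 3.

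In the mitotic class the median and the summed level were lowest in library 3 of each group. This did not hold for every member: Kif23, Kif20b, Kif15 and Kif18a were highest in control 3 among the controls. The class's median log2 difference from the control mean was 0.26, 0.25 and −0.17 in mimics 1, 2 and 3 and 0.05, 0.07 and −0.15 in controls 1, 2 and 3. Summed, the 13 mitotic genes had 187, 182 and 146 FPKM in mimics and 165, 164 and 143 FPKM in controls. A list of genes that work with these motors had its lowest median in library 3 of each group, although single members such as Ndc80 and Anln, described further on, were highest in control 3 among the controls. For 30 spindle and cytokinesis genes (kinases, checkpoint and kinetochore proteins, midzone proteins and Cenpe, a kinesin whose symbol lies outside the rule) the medians were 0.22, 0.17 and −0.16 in mimics and 0.09, 0.04 and −0.15 in controls. The 10 transport motors had 0.17, 0.09 and −0.06 in mimics and 0.10, 0.11 and −0.19 in controls, and over all tested genes the medians were 0.07, 0.06 and −0.02 in mimics and 0.05, 0.04 and −0.09 in controls. The light chains had −0.20, −0.21 and −0.37 in mimics and 0.25, 0.20 and −0.47 in controls. A lowest median in library 3 was thus shared by transport motors, light chains and all tested genes. The other kinesins went the opposite way, with library 3 the highest of each group (0.19 in mimics and 0.18 in controls). Leaving out library 3 of both groups, a comparison chosen with the values known, 9 of the 13 mitotic kinesins (6 higher, 3 lower) and 3 of the 10 transport motors passed limma at an adjusted p under 0.05, against 43.1% of all tested genes (23.1% higher, 19.9% lower). Weighting the libraries by their scatter gave 9 and 5, against 51.9% of genes.

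Partners of the motors were read from lists of their own. In none of the 4 lists did a gene pass. The 30 spindle partners had 18 higher and 12 lower in mimic libraries, with a median log2 fold change of 0.07. Ndc80, a kinetochore protein that grips microtubules, had 11, 11.3 and 9.86 FPKM in mimics and 7.80, 6.87 and 9.08 FPKM in controls (log2 fold change 0.40, SE 0.13, limma adjusted p = 0.332). Anillin (Anln), a scaffold of the cleavage furrow, had 60.2, 60.5 and 56.4 FPKM in mimics and 39.1, 40.6 and 53.6 FPKM in controls (0.42, SE 0.14, limma adjusted p = 0.332). Both were picked by their small p, and in both every mimic was above every control. Over the list the groups did not overlap in 4 of 30 genes, against 20.1% of all tested genes. All 4 had mimics above, against 12.6% of all tested genes. Of 19 tested kinesin adaptors and regulators, 13 were higher and 6 lower, with a median of 0.18. The nucleoporin Ranbp2, which binds and activates Kif5b and Kif5c, had 40.8, 43.2 and 32.2 FPKM in mimics and 23.1, 23.4 and 25.8 FPKM in controls (0.65, SE 0.14, limma adjusted p = 0.332). Kidins220, a kinesin-1 cargo that binds light chains, had 22.2, 21.6 and 22.4 FPKM in mimics and 18.8, 18.1 and 16.8 FPKM in controls (0.29, SE 0.10, limma adjusted p = 0.337). Over this list the groups did not overlap in 6 of 19 genes, these among them, against 20.1% of all tested genes. Mimics were above in 5 (12.6% of all tested genes) and below in 1 (7.49%).

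The motor of the opposite direction, dynein, and its activator dynactin had 9 higher and 15 lower of 24 tested genes, with a median log2 fold change of −0.07. The dynactin subunit Dctn3 had 37.6, 37.0 and 33.2 FPKM in mimics and 53.0, 49.1 and 46.1 FPKM in controls (−0.45, SE 0.11, limma adjusted p = 0.332). The dynein light chain Dynll1 had 13.7, 13.3 and 11.8 FPKM in mimics and 16.5, 19.1 and 15.1 FPKM in controls (−0.36, SE 0.13, limma adjusted p = 0.341). Every mimic was under every control in both. Over the list the groups did not overlap in 6 of 24 genes, against 20.1% of all tested genes. Mimics were above in 3 (12.6% of all tested genes) and below in 3 (7.49%). The 13 tested tubulins had 6 higher and 7 lower, with a median of −0.06. Tubd1 (delta tubulin, of centrioles) had a log2 fold change of 0.24 (SE 0.16, limma adjusted p = 0.528), and Tubb6, a beta tubulin, had 51.2, 49.3 and 37.5 FPKM in mimics and 68.9, 63.6 and 41.1 FPKM in controls (−0.30, SE 0.22, limma adjusted p = 0.557). With the trend of length and GC removed, the list medians were −0.01 for spindle partners, 0.12 for adaptors, −0.06 for dynein and dynactin and 0.11 for tubulins, whose sign thus turned. The log2 fold changes were then 0.18 for Ndc80, 0.21 for Anln, 0.33 for Ranbp2, 0.16 for Kidins220, −0.26 for Dctn3, −0.39 for Dynll1, 0.25 for Tubd1 and −0.10 for Tubb6. Without negative control 3, limma called 6 of the 30 spindle partners (4 higher, 2 lower), 3 of the 19 adaptors (all higher), 7 of the 24 dynein and dynactin genes (1 higher, 6 lower) and 3 of the 13 tubulins (all lower), against 23.7% of all tested genes.

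Seed sites for miR-125b-5p were counted in these genes and in all tested genes. In the longest 3′ UTR, 7 of the 29 tested members (24.1%) held a site of at least 7 bases, against 22.2% of 9311 tested genes with a 3′ UTR. They were 1 of 13 mitotic kinesins (Kif2c), 3 of 10 transport motors (Kif1b with 3 sites, Kif1c and Kif13b, all of the shorter form TCAGGGA), 2 of 3 light chains (Klc4, Klc2) and 1 of 3 others (Kif24). The median 3′ UTR was 528 bases in the mitotic members, 2922 bases in the transport motors and 1150 bases over all tested genes. Of the 7 with a site, 4 were higher and 3 lower in mimic libraries, with a median log2 fold change of 0.01. Of the 22 without one, 16 were higher and 6 lower, with a median of 0.09. Over all tested genes the medians were 0.07 for the 2063 with a site and 0.02 for the 7248 without. Of the full 8-base sites printed above, Klc4 had a log2 fold change of −0.26 and Kif24 one of 0.09, and neither passed. With the trend of length and GC removed these were −0.03 and 0.01, and Klc2 had −0.16.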

How the data were processed

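The authors deposited 1 FPKM value per gene and library. HISAT2, fastp, DESeq2 and mm10 are named in the submitters' processing notes. Versions, annotation, counting tool, strand setting and filter were not given in the sources used here. Symbols, positions, exon lengths and 3′ UTRs came from GENCODE M21 on GRCm38, which held 16568 of the 16665 identifiers. Depth was recovered from low FPKM values, of which 98.5% to 99.1% were whole fragments within 0.1 fragment, up to 20 fragments.

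The comparison was made on log2(FPKM + 1) for genes of mean FPKM of at least 1 with limma 3.58.1 in R 4.3.3 (mean-variance trend, two-sided, Benjamini-Hochberg, threshold 0.05), and the script was tested on simulated data. Tested members had 39 to 5693 fragments a library. The length and GC trend was fitted in each library with splines and subtracted. Deviations of same-numbered libraries from their group means correlated at 0.29, 0.18 and 0.34 over genes, so the number was used as a block in an alternative. Mimic 1 also correlated with control 2 at 0.31, and libraries 3 correlated negatively with the others. Deviations from a group mean cancel over the group, so these correlations are not independent and negative ones are partly built in. They do not settle whether libraries were paired by number, and the labels do not say what a number stands for.

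Members, roles and lists were chosen with earlier results of these data known. Fold changes were named for up to 6 mitotic, 6 transport and 4 other kinesins, the tested light chains and 2 genes per partner list, by smallest p. One overlap between genes is not reported here.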

Additional observations from a re-analysis of the deposited data

How the results depend on the processing

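No gene passed at an adjusted p under 0.05 with a pseudocount of 0.1 or 0.5, without the filter, with a stricter filter, with centring or quantile scaling, with the trend of length and GC removed, with voom, or with the replicate block. The block by replicate number called 0 genes in limma and its smallest adjusted p was 0.266. Whether libraries were paired by number is not known. Array weights, whose fit stopped before convergence, called 5276 genes, 9 mitotic kinesins and 5 transport motors. Leaving out 1 library at a time gave 0 to 2412 genes, 0 to 5 mitotic kinesins and 0 to 3 transport motors, and the high ends came without negative control 3. Leaving out library 3 of both groups gave 4377, 9 and 3. The trend removed together with negative control 3 left out gave 385 genes. The transport median became −0.059 with a mean FPKM of at least 5, where 4 motors are left. Kif18a was −0.023 with the trend removed, with or without the block. Kif2a was −0.19 in those fits, −0.16 with the trend removed and without negative control 3, and −0.014 to 0.27 over the fits without 1 library, the low end without miR-125b mimic 3. Kif21b was −0.033 with array weights, −0.075 (without negative control 3) to 0.23 over the fits without 1 library, and −0.13 without library 3 of either group. For these the cause was not tested. Of the named genes' values under the alternatives, 422 kept their direction and call, 56 kept their direction and passed, and 9 reversed. FPKM at 3 libraries a group limits precision, and intervals cover these samples only.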
